A study of Homo sapiens with 6 samples.

Results

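The respiratory chain set held 103 of the 21533 genes in the deposited tables. It took every symbol that starts with NDUFA, NDUFB, NDUFC, NDUFS or NDUFV and a digit, every symbol that starts with UQCR, COX4, COX5, COX6, COX7, COX8 or ATP5, the genes SDHA, SDHB, SDHC, SDHD and CYC1, and the mitochondrially encoded genes named MT-ND, MT-CO, MT-CYB and MT-ATP. Of these, 90 lie in the nuclear genome and 13 in mitochondrial DNA. Complex I had 37 nuclear and 7 mitochondrial members, complex II 4 nuclear members, complex III 10 and 1, complex IV 19 and 3, and complex V 20 and 2. NDUFA4 and its paralogue NDUFA4L2 carry complex I names but were counted with complex IV, where the NDUFA4 protein is now placed.

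RNA sequencing was carried out on LX-2 cells, an immortalised line that derives from stellate cells of human liver, the cells that deposit matrix when the liver scars. In 3 samples the cells had been transfected with a control siRNA and in 3 samples with an siRNA against PERK, a kinase of the endoplasmic reticulum that slows translation when unfolded protein builds up. All 6 samples had then been given palmitic acid, a saturated fatty acid, and their RNA was collected 24 h later. Cells that had not received the fatty acid were not analysed here, so each difference below is one between siRNAs in lipid-treated cells of a single line. The labels do not tell whether replicates were grown separately. The p-values weigh each difference only against the spread of samples within a group, which could be a technical spread.

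The respiratory chain passes electrons from NADH, through complex I, and from succinate, through complex II, to ubiquinone, then through complex III and cytochrome c to complex IV, which reduces oxygen. Complexes I, III and IV pump protons out of the mitochondrial matrix, and complex V, the ATP synthase, lets them flow back and makes ATP. Mitochondrial DNA encodes a few of the most hydrophobic subunits, transcribed inside the organelle as long precursors that are then cut, while every subunit of complex II and most of the others come from nuclear genes, are translated in the cytosol and are imported.

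The samples held 17937141 to 19585872 exon reads, of which 94.9 to 95.0% were placed uniquely. EIF2AK3, which encodes PERK, had 12.92, 12.98 and 13.87 CPM with control siRNA, where CPM are reads scaled to library size with TMM factors. With PERK siRNA it had 4.37, 4.96 and 5.52 CPM. The groups did not overlap, and the mean in the PERK siRNA samples was 37.3% of that in control samples (log2 fold change -1.42 ± 0.10 SE, adjusted p = 3.0e-13). Across all genes the difference between the siRNAs was wide. At an adjusted p under 0.05, PERK siRNA samples were higher in 34.4% of the 12973 tested genes and lower in 35.0%, with a median log2 fold change of 0.0038. Stellate cell and fibroblast markers summed to 6747 to 6994 CPM in control and 7493 to 7530 CPM in PERK siRNA samples, led by VIM and COL1A1. Hepatocyte markers summed to 5.66 to 7.11 and 4.40 to 5.13 CPM, and 9 of 12, ALB among them, had no read. Endothelial markers summed to 11.7 to 11.9 and 3.29 to 4.25 CPM with 2 of 8 at no read, cholangiocyte markers, nearly all SOX9, to 130.0 to 139.5 and 86.4 to 97.1 CPM with 1 of 6 at no read, and macrophage and lymphoid markers, nearly all CD68, to 77.3 to 80.1 and 72.1 to 74.2 CPM with 5 of 10 at no read. The part of these differences in the results below was not tested.

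All 13 mitochondrially encoded members were higher with PERK siRNA, with a median log2 fold change of 0.30 and a range of 0.08 to 0.45. Of the 90 nuclear members 81 passed the filter on low counts, and of these 14 (17.3%) were higher, 34 (42.0%) were lower and 33 did not pass the threshold, with a median of -0.07. Against the 34.4% of all genes called higher and the 35.0% called lower, the nuclear members thus held fewer rises and somewhat more falls. The excess of falls was not kept for larger changes. Tested against a 1.2-fold change, 9 of the 81 were lower, a smaller share than the 2344 of all 12973 genes. In that test 2 of the 13 mitochondrial members were higher, about the share of all genes (2345). The changes were small: ATP5PB (-0.69) was the only member that both passed the threshold and moved by more than 0.5 on the log2 scale. Reads without a unique place matter for some members: 18 nuclear members had under 90% of their reads placed uniquely. Most of these share annotated exon bases with another gene on the same strand, for example 33.8% in NDUFB8 and 32.3% in NDUFA7. SDHA, NDUFB5, UQCRH and UQCRHL do not. The cause of the low unique shares was not tested. Among the 65 tested nuclear members with at least 90% of reads placed uniquely, 10 were higher and 27 lower, with a median of -0.07. Whether a lower level means less RNA per cell or a different mix of cells cannot be told apart in bulk samples.

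**Figure D1:**
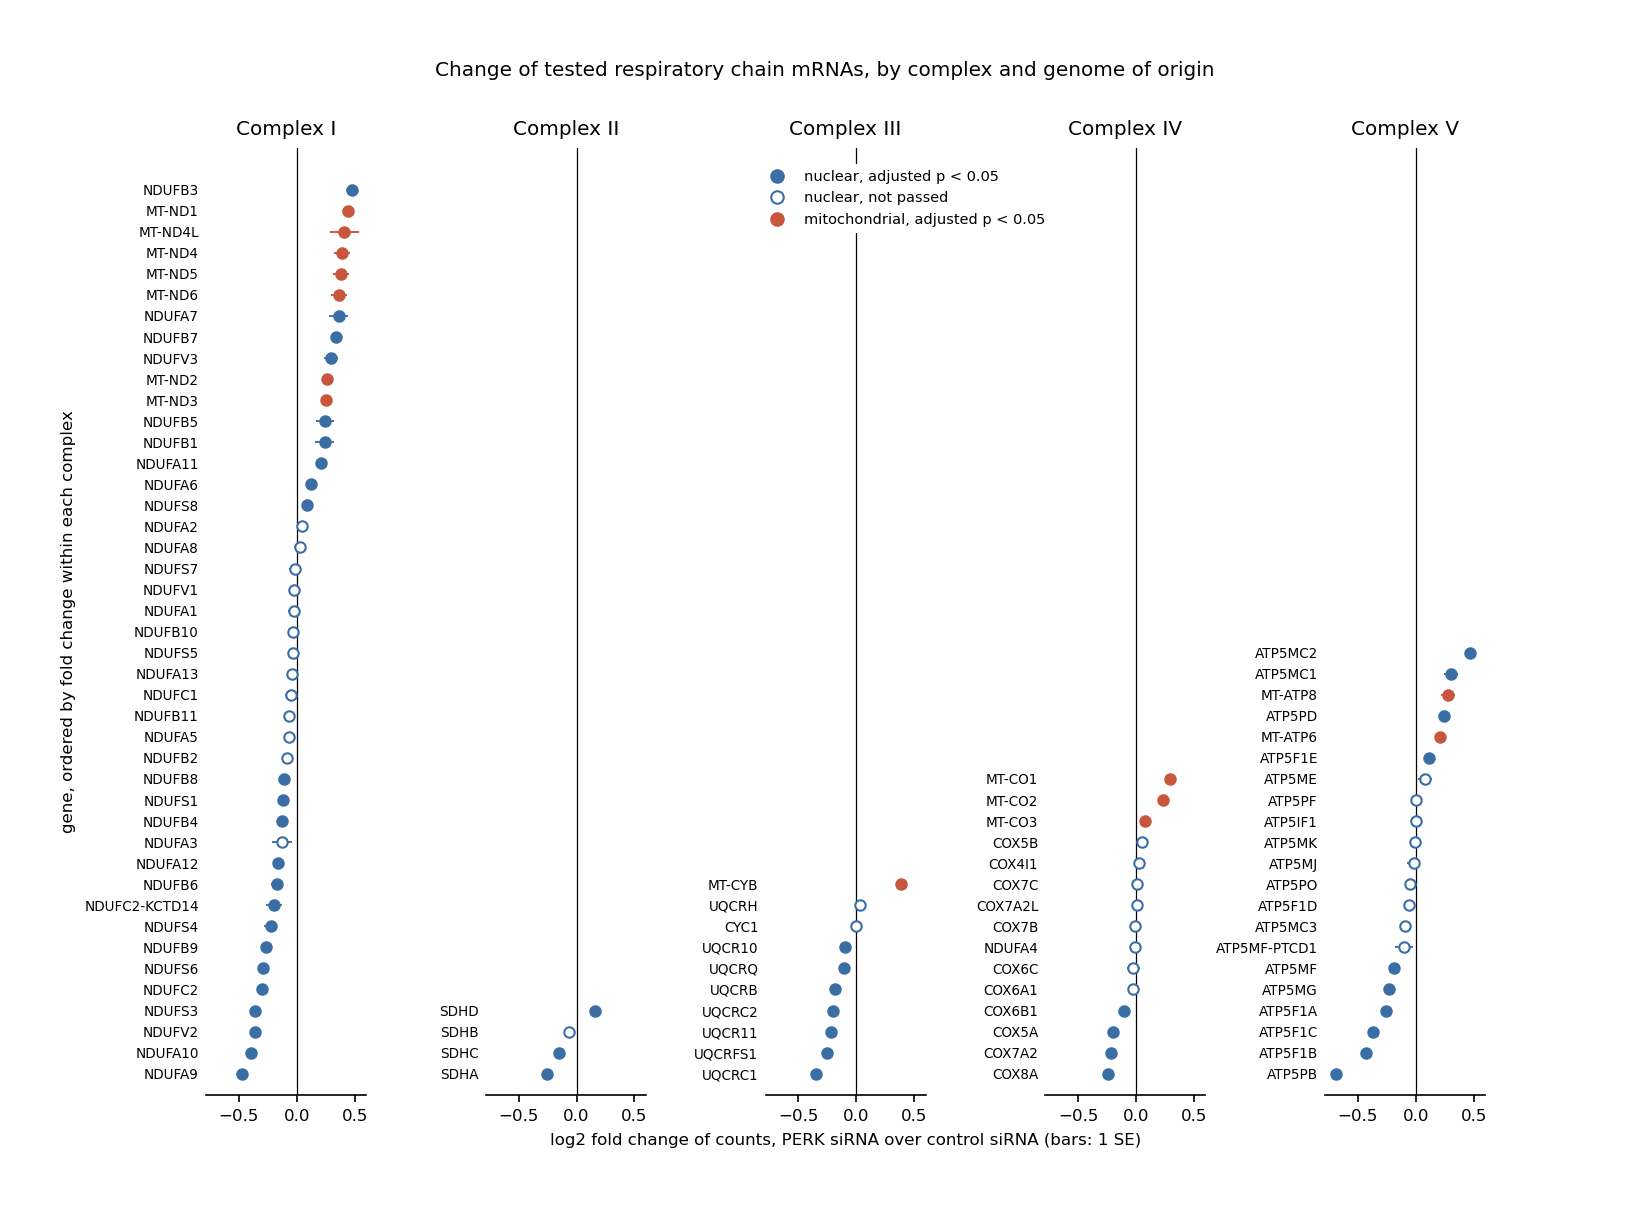
Log2 fold change of counts, PERK siRNA over control siRNA, for the tested members reported by name, in 1 panel for each complex and ordered within it. Filled points passed an adjusted p under 0.05, open points did not, and bars are 1 SE. All 13 mitochondrial members, in red, lie to the right of 0, and the nuclear members, in blue, reach from -0.69 to 0.48.

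By the share of reads, the mitochondrial members took 0.514, 0.546 and 0.575% of exon reads in the control samples and 0.659, 0.673 and 0.660% in the PERK siRNA samples. The nuclear members took 0.805, 0.781 and 0.809% in control and 0.730, 0.717 and 0.720% with PERK siRNA. In both sums the groups did not overlap, and they moved in opposite directions. Whether RNA was selected by poly(A) or depleted of ribosomal RNA is not given, and the mitochondrial share of a library can differ between these methods, so the shares and the ratio below describe these libraries. Per exon length, as TPM (reads per exon base, scaled to a fixed total in each sample), the nuclear members summed to 18995 ± 313 TPM in control and 17671 ± 140 TPM with PERK siRNA, and the mitochondrial members to 20722 ± 1160 and 25027 ± 348 TPM (SD, n = 3 each). The ratio of the mitochondrial to the nuclear sum was 1.02, 1.12 and 1.13 in control and 1.39, 1.44 and 1.41 in PERK siRNA samples, a group mean 1.30 times as high. Restricting the sums to uniquely placed reads left this factor at 1.30. With 3 samples against 3 and members picked by name, these sums are given as a description with no test.

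**Figure D2:**
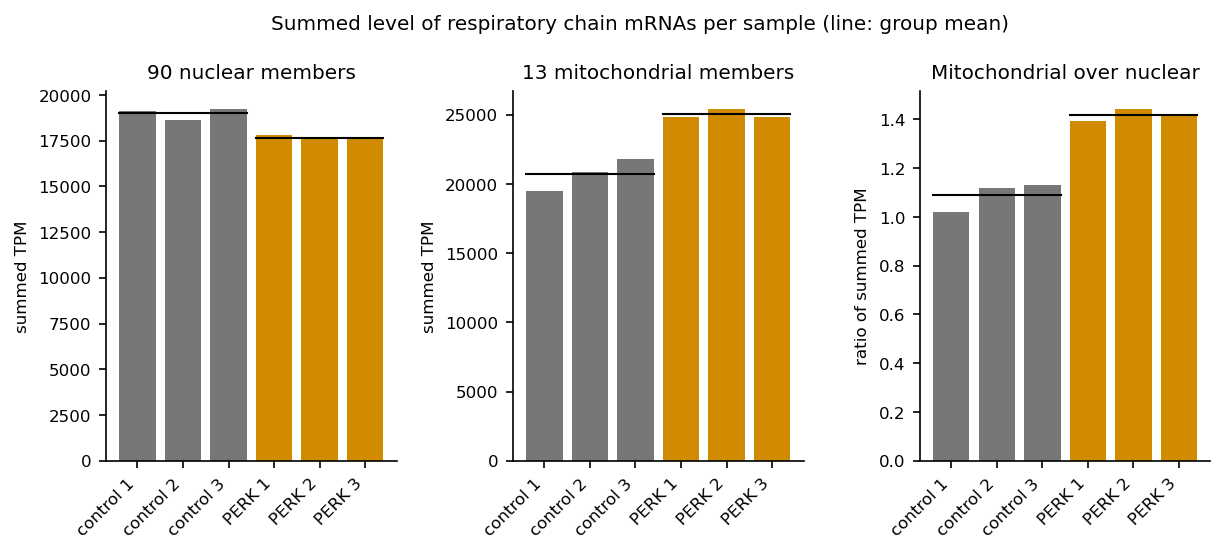
Summed TPM of the 90 nuclear members (left) and the 13 mitochondrial members (middle), and their ratio (right), with 1 bar per sample and a line at each group's mean. The mitochondrial sum is 19495 to 21801 TPM in control and 24826 to 25430 TPM in PERK siRNA samples, and the ratio is 1.02 to 1.13 in control and 1.39 to 1.44 in PERK siRNA samples.

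In every one of the 13 mitochondrial members the 3 PERK siRNA samples lay above the 3 control samples. Of all genes tested, 35.8% had their groups apart in this direction and 36.0% in the other. The genes lie on chrM, 12 of them read from 1 strand and MT-ND6 from the other. MT-ND1, a core membrane subunit of complex I (chrM:3307-4262), had the largest rise, from 180.6, 193.9 and 206.5 CPM to 256.1, 266.8 and 267.9 CPM (0.45 ± 0.04 SE, adjusted p = 4.2e-07). MT-CO1, the catalytic subunit of complex IV (chrM:5904-7445), went from 1556, 1606 and 1670 CPM to 1989, 1976 and 1975 CPM (0.30 ± 0.02 SE, adjusted p = 7.5e-12). It had the highest level of all members per length, with a mean of 3645 TPM in control and 4461 TPM in PERK siRNA samples. MT-CO3, another core subunit of complex IV (chrM:9207-9990), moved least, from 506.4, 514.5 and 526.7 CPM to 548.0, 545.1 and 543.4 CPM (0.08 ± 0.02 SE, adjusted p = 0.0035). MT-ND6, on the light strand (chrM:14149-14673), went from 106.0, 120.9 and 126.5 CPM to 152.7, 155.9 and 146.2 CPM (0.36 ± 0.07 SE, adjusted p = 0.0033). Genes annotated on both strands thus rose, though reads of overlapping precursors are kept apart only if counting used strand, which is not given. The rise was not the same for each gene: the 3 subunits of complex IV ranged from 0.08 to 0.30 and the 7 of complex I from 0.25 to 0.45.

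**Figure D3:**
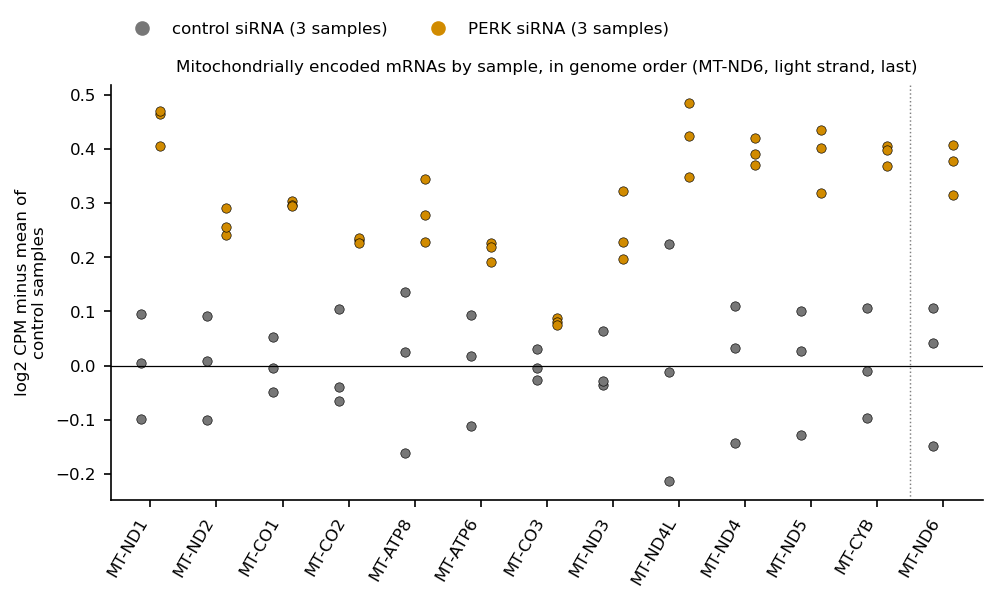
Log2 CPM of the 13 mitochondrially encoded mRNAs in each sample, minus the mean of the control samples, in the order of the genes along the mitochondrial genome, with MT-ND6, which is read from the other strand, last. In each gene the 3 orange points (PERK siRNA) lie above the 3 grey points (control siRNA). The gap is narrowest in MT-CO3, and the grey points are widest apart in MT-ND4L.

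The other mitochondrial members lay between these. The complex I genes MT-ND4 (715.2 ± 63.1 to 937.2 ± 15.9 CPM, 0.39), MT-ND5 (346.9 ± 27.6 to 452.4 ± 18.7 CPM, 0.38), MT-ND2 (338.1 ± 22.5 to 405.0 ± 7.36 CPM, 0.26) and MT-ND3 (271.7 ± 10.6 to 322.9 ± 14.8 CPM, 0.25) rose (SD, n = 3 each). MT-CYB, the cytochrome b of complex III, rose from 379.2 ± 26.9 to 496.0 ± 6.71 CPM (0.39), and MT-CO2, the complex IV subunit that takes electrons from cytochrome c, from 360.1 ± 23.3 to 422.1 ± 1.32 CPM (0.23). In complex V, MT-ATP6, the membrane subunit of the proton channel, rose from 478.1 ± 34.1 to 553.0 ± 7.27 CPM (0.21) and MT-ATP8 from 45.7 ± 4.69 to 55.5 ± 2.24 CPM (0.28). Control replicate 1 was the lowest of the 6 samples in all 13 mitochondrial members, and without it the ratio of the mitochondrial to the nuclear sum was 1.26 times as high with PERK siRNA. MT-ND4L had the least certain rise, from 52.7, 60.7 and 71.4 CPM to 77.8, 85.5 and 82.0 CPM (0.41 ± 0.12 SE, adjusted p = 0.040). It lost its call without control replicate 2 (adjusted p = 0.11) and without any 1 of the PERK siRNA samples (0.076 to 0.11), and MT-ATP6 lost its call without control replicate 2 (0.22, adjusted p = 0.068).

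Both of these genes share bases with a neighbour on the same strand, where a read cannot be given to either gene from its place alone. The sources used here do not give how the authors counted such reads. The shared stretches are printed from the GRCh38 reference, 5′ to 3′, with the bases that lie in both genes in capitals and 12 flanking bases on each side. MT-ATP8 and MT-ATP6 overlap by 46 bases (chrM:8527-8572, shown from 8515 to 8584) and MT-ND4L and MT-ND4 by 7 bases (chrM:10760-10766, shown from 10748 to 10778). In both, the capitals open with the ATG start codon of the downstream gene.
MT-ATP8/MT-ATP6: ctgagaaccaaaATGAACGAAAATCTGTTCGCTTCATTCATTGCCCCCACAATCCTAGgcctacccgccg
MT-ND4L/MT-ND4: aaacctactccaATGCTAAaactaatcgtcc

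Complex I, NADH dehydrogenase, had all 37 nuclear members tested: 9 were higher (24.3%), 15 lower (40.5%) and 13 did not pass, with a median of -0.07. Of all genes 34.4% were higher and 35.0% lower, so the share of falls was near that of all genes. Falls included nuclear core subunits, the ones that hold the flavin and the iron-sulfur clusters or line the ubiquinone site. NDUFV2, which carries an iron-sulfur cluster of the NADH-oxidising module, was at 137.1, 133.3 and 135.3 CPM in control and 110.5, 105.1 and 100.9 CPM in PERK siRNA samples (-0.36 ± 0.03 SE, adjusted p = 5.7e-11). NDUFS3, of the module that reduces ubiquinone, fell by as much, from 44.5 ± 1.55 to 34.7 ± 1.84 CPM (-0.36, SD, n = 3 each). NDUFS1, the large iron-sulfur subunit, fell by 0.12, from 212.2 ± 2.06 to 195.7 ± 3.68 CPM. In these 3 genes the groups did not overlap, as in 15 of the 37 and in 36.0% of all genes in this direction. NDUFV1, which binds NADH and flavin, had 147.1 ± 2.51 and 144.5 ± 0.18 CPM (-0.03, adjusted p = 0.41) and NDUFS7 39.1 ± 1.71 and 38.7 ± 1.72 CPM (-0.02, adjusted p = 0.78). NDUFS8, another core subunit, was called higher (0.09, adjusted p = 0.028), and its call was lost without control replicate 2 or 3, without PERK siRNA replicate 1 or 3 (adjusted p = 0.053 to 0.11) and with DESeq2 (adjusted p = 0.11).

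The accessory subunits of complex I surround that core and are needed for its assembly and stability. Their changes ran in both directions. NDUFA9, a subunit near the ubiquinone site (chr12:4649095-4694317, 88.3% of reads unique), had the largest fall of the complex, from 36.2, 35.5 and 37.8 CPM to 25.6, 27.4 and 25.8 CPM (-0.47 ± 0.05 SE, adjusted p = 3.1e-09). NDUFA10 (chr2:239892450-240025402) fell from 73.4, 69.5 and 77.5 CPM to 53.1, 57.2 and 57.4 CPM (-0.39 ± 0.04 SE, adjusted p = 3.7e-09). In both the groups were well apart. NDUFB3, of the distal part of the membrane arm (chr2:201071433-201085750), had the largest rise of any nuclear member, from 27.0, 27.6 and 28.7 CPM to 40.7, 38.8 and 36.7 CPM (0.48 ± 0.05 SE, adjusted p = 2.7e-09). NDUFB7 (chr19:14566078-14572062) rose from 53.6, 49.6 and 55.2 CPM to 67.2, 66.9 and 66.0 CPM (0.34 ± 0.04 SE, adjusted p = 2.4e-08). Of the 11 NDUFB subunits, which belong to the membrane arm, 4 rose and 4 fell (36.4% each, near the 34.4% and 35.0% of all genes). NDUFB3 and NDUFB7, which rose, and NDUFB6 and NDUFB9, which fell, kept their calls with any sample left out. The falls of NDUFB4 and NDUFB8 lost their calls without control replicate 1 (adjusted p = 0.05001 and 0.075), that of NDUFB4 also without PERK siRNA replicate 3 (0.053) and that of NDUFB8 with DESeq2 (0.054). The rise of NDUFB1 lost its call without control replicate 2 (0.057) and with DESeq2 (0.068), and that of NDUFB5 without PERK siRNA replicate 3 (0.054). Of the other 19 accessory members 4 rose (21.1%) and 7 fell (36.8%). NDUFA7 had a rise of 0.36, but just 5.1% of its reads were placed uniquely and the call was lost on unique reads (0.43, adjusted p = 0.23). NDUFC2-KCTD14, a read-through gene that shares exons with NDUFC2 and had 0.1% of its reads placed uniquely, is no separate evidence beside NDUFC2 (-0.30).

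Complex II, succinate dehydrogenase, is also an enzyme of the tricarboxylic acid cycle. SDHA, its flavin subunit, was at 485.8, 473.1 and 469.7 CPM in control and 402.2, 392.3 and 403.4 CPM in PERK siRNA samples (-0.25 ± 0.02 SE, adjusted p = 1.8e-10), with groups that did not overlap and 23.0% of reads placed uniquely. The membrane anchors moved apart: SDHC fell from 78.3 ± 1.71 to 70.6 ± 0.97 CPM (-0.15) and SDHD rose from 47.8 ± 2.92 to 53.3 ± 0.96 CPM (0.16). SDHB, the iron-sulfur subunit, had 62.1 ± 1.57 and 59.3 ± 2.61 CPM (-0.07, adjusted p = 0.14), and passed the threshold without PERK siRNA replicate 1 (-0.10, adjusted p = 0.040).

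Complex III, the cytochrome bc1 complex, had the largest share of falls: 7 of 9 tested nuclear members were lower (77.8%, against 35.0% of all genes) and 0 higher. Their median was -0.18, beside the single mitochondrial member MT-CYB at 0.39. The excess of falls was not kept for larger changes. Tested against a 1.2-fold change, 1 of the 9 was lower (UQCRC1), a smaller share than the 2344 of all 12973 genes. UQCRC1, a core subunit (chr3:48599002-48610976), fell from 293.0, 288.3 and 286.9 CPM to 233.6, 220.1 and 228.9 CPM (-0.35 ± 0.03 SE, adjusted p = 1.3e-12). The other core subunit UQCRC2 fell from 105.7 ± 3.65 to 92.2 ± 1.67 CPM (-0.20), and UQCRFS1, the Rieske iron-sulfur protein, from 116.4 ± 4.55 to 97.7 ± 1.06 CPM (-0.25). All 3 had groups that did not overlap, as had 5 of the 9 in all and 36.0% of all genes in this direction. CYC1, the cytochrome c1 that hands electrons to cytochrome c, had 67.7 ± 1.99 and 67.6 ± 2.57 CPM (0.00, adjusted p = 0.96). Of the 5 small subunits tested, UQCR11 (-0.22), UQCRB (-0.18), UQCRQ (-0.11) and UQCR10 (-0.10) fell and UQCRH, the hinge protein, did not pass (0.03). The last 2 falls were uncertain. UQCR10 had an adjusted p of 0.047 and lost its call without control replicate 1 or 3 or any 1 of the PERK siRNA samples (adjusted p = 0.055 to 0.24), and with limma-voom (0.051), non-robust dispersion (0.057), upper-quartile factors (0.093) and DESeq2 (0.16). UQCRQ lost its call without control replicate 3 or PERK siRNA replicate 2 or 3 (adjusted p = 0.052 to 0.10).

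Complex IV, cytochrome c oxidase, had the smallest share of calls and the smallest median change among nuclear members. Of 12 tested 4 were lower (33.3%, near the 35.0% of all genes), 0 higher and 8 did not pass, with a median of -0.02. By summed TPM the order was another: nuclear complex IV changed by -7.07% and nuclear complex I by -4.50%. COX8A, a small membrane subunit, fell from 203.1, 192.8 and 202.1 CPM to 166.4, 169.8 and 169.7 CPM (-0.24 ± 0.03 SE, adjusted p = 8.1e-09). COX7A2 (-0.21), COX5A (-0.20) and COX6B1 (-0.11) fell as well, and in all 4 the groups did not overlap. These 4 of 12 are near the 36.0% of all genes with groups apart in this direction. COX4I1, which starts the assembly around MT-CO1, had 73.0 ± 1.00 and 74.5 ± 2.02 CPM (0.03, adjusted p = 0.49), and COX5B, COX6A1, COX6C, COX7A2L, COX7B, COX7C and NDUFA4 lay between -0.03 and 0.05. The 3 mitochondrial members, by contrast, had a median of 0.23. Per length, COX7A2 made up 80.2, 80.2 and 80.3% of the summed TPM of COX7A1, COX7A2 and COX7A2L in the control samples and 77.8, 77.0 and 78.3% in the PERK siRNA samples. The rest was nearly all COX7A2L, whose product also joins complexes III and IV.

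The isoforms of complex IV that other tissues or states use were almost absent. COX4I2, COX6A2, COX7B2 and COX8C had no read in any sample, which allows at most 0.153 to 0.167 CPM a sample if 3 reads are taken as the floor (counting error only). COX7A1, the form of heart and skeletal muscle, had 2 reads in all, COX6B2 had 25, and UQCRHL and ATP5MGL, copies of a complex III and a complex V subunit, had 3 and 1. NDUFA4L2, known as a hypoxia-induced paralogue of NDUFA4, had 5, 5 and 5 reads in control and 12, 7 and 14 reads in PERK siRNA samples. It stood at 0.55% of the summed TPM of the pair in control and 1.24% with PERK siRNA. These 9 members were below the filter. When all genes with a read were tested, NDUFA4L2 had a log2 fold change of 1.14 with an adjusted p of 0.058.

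Complex V, the ATP synthase, held both the largest fall and some of the largest rises. Of 19 tested nuclear members 4 were higher (21.1%) and 6 lower (31.6%), with a median of -0.05. The share of falls was near the 35.0% of all genes, and that of rises was below their 34.4%. ATP5PB, the b subunit of the peripheral stalk (chr1:111448864-111462773), fell from 143.6, 139.8 and 151.3 CPM to 92.7, 88.7 and 89.1 CPM (-0.69 ± 0.03 SE, adjusted p = 3.5e-17). The groups were far apart, and the PERK siRNA samples differed little from each other. Of the F1 head, where ATP is made, the catalytic β subunit ATP5F1B (chr12:56638175-56646068) fell from 565.9, 569.8 and 580.9 CPM to 426.1, 417.3 and 427.9 CPM (-0.43 ± 0.02 SE, adjusted p = 6.4e-16). The α subunit ATP5F1A fell from 587.0 ± 12.4 to 492.2 ± 7.65 CPM (-0.25) and the γ subunit ATP5F1C from 71.7 ± 3.06 to 55.4 ± 1.69 CPM (-0.37). The small subunits of the head went otherwise: ATP5F1E rose (0.11) and ATP5F1D did not pass (-0.05, adjusted p = 0.20). Summed per length, the 5 genes of the head and its central stalk went from 2029 ± 21.4 to 1625 ± 7.33 TPM.

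The c-ring of ATP synthase is the rotor in the membrane, and 3 genes, ATP5MC1, ATP5MC2 and ATP5MC3, encode precursors that give the same mature c subunit. ATP5MC2 (chr12:53632726-53677408) rose from 83.8, 75.5 and 87.9 CPM to 114.0, 112.5 and 115.7 CPM (0.47 ± 0.04 SE, adjusted p = 1.2e-09). ATP5MC1 (chr17:48892765-48895871) rose from 38.6, 31.6 and 37.1 CPM to 44.1, 42.1 and 46.4 CPM (0.30 ± 0.06 SE, adjusted p = 0.00024). In these 2 genes the groups did not overlap, as in 35.8% of all genes in this direction. ATP5MC3 had 104.4, 92.8 and 100.2 CPM in control and 92.6, 88.3 and 97.7 CPM with PERK siRNA, with groups that overlapped (-0.10 ± 0.04 SE, adjusted p = 0.056). It passed the threshold in 7 of the 17 alternatives: without control replicate 2 (-0.14, adjusted p = 0.0013) or PERK siRNA replicate 3 (-0.13, 0.0098), without a filter (0.0055), with the replicate block (0.015), on unique reads (0.023), with library size only (0.028) and at a minimum of 1 CPM in 3 samples (0.044). Within the 3 genes the share of summed TPM of ATP5MC2 went from 31.9 ± 0.96% to 37.0 ± 0.82%, that of ATP5MC3 from 29.8 ± 0.84% to 23.4 ± 0.33%, and that of ATP5MC1 from 38.3 ± 1.03% to 39.6 ± 0.49%. The summed level of the ring genes went from 418.0 ± 29.8 to 497.0 ± 16.0 TPM, opposite to the head.

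**Figure D4:**
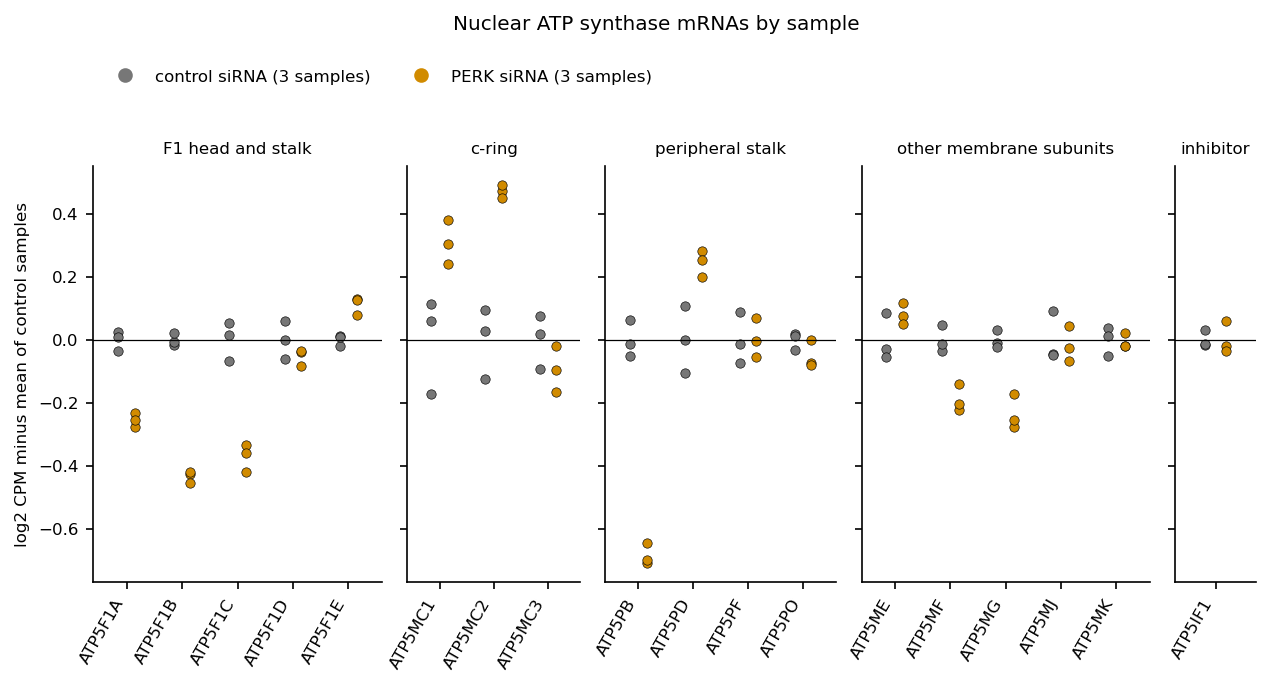
Log2 CPM of the tested nuclear ATP synthase mRNAs in each sample, minus the mean of the control samples, grouped by the place of the protein in the enzyme; the read-through gene ATP5MF-PTCD1 is left out. ATP5F1A, ATP5F1B, ATP5F1C and ATP5PB lie below the control samples, and ATP5MC1, ATP5MC2 and ATP5PD above them.

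The remaining ATP synthase members moved less. In the peripheral stalk ATP5PD rose from 113.1 ± 8.44 to 133.9 ± 3.87 CPM (0.24, adjusted p = 0.00024), whereas ATP5PF had 72.0 ± 4.12 and 72.2 ± 3.13 CPM (0.00) and ATP5PO, with 44.3% of reads unique, -0.05. That stalk thus held a member that fell by 0.69 and another that rose by 0.24. Of the other membrane subunits ATP5MG (-0.23, 55.5% of reads unique) and ATP5MF (-0.19) fell, and ATP5ME, ATP5MJ and ATP5MK did not pass. ATP5IF1, the inhibitor that blocks the enzyme from running backwards, had 72.9 ± 1.32 and 73.0 ± 2.59 CPM (0.00, adjusted p = 0.96). ATP5PF lies on the opposite strand to GABPA and overlaps it, and the use of strand in counting is not given. The same limit holds for members that moved. Of its annotated exon bases, ATP5PB shares 10.3% with a gene on the opposite strand (WDR77), ATP5PD 10.5% (KCTD2) and ATP5F1E 23.2% (TUBB1). In the other complexes these shares include 19.8% in NDUFB3 (FAM126B), 21.0% in NDUFB9 (TATDN1 and MTSS1) and 20.8% in UQCRQ (GDF9).

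Levels within a complex differed far more than they changed. Per length, nuclear complex I members ranged in the control samples from 11.2 TPM (NDUFB5) to 844 TPM (NDUFS6), although nearly all of these proteins are present in equal number in the enzyme. The exon length that divides the reads was 4340 bases for NDUFB5 and 756 for NDUFS6, so part of this range depends on the annotated length. Whether the cells use transcripts of these lengths was not tested. The highest nuclear members were COX8A with 1408 TPM, COX6A1 with 1229 TPM and ATP5F1B with 1135 TPM. Across the 81 tested nuclear members the log2 fold change had a Spearman correlation of -0.049 with the mean TPM and of -0.21 with exon length. Over all 12973 tested genes that with exon length was 0.044. These are descriptions across genes of the same 6 libraries, and genes are not independent.

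Promoters of respiratory genes are known for sites of the factors NRF1, GABP, of the ETS family, and YY1, and stretches of them are shown because the nuclear members moved in both directions. Of the 90 nuclear members 70 had an entry in the RefSeq promoter table (GRCh38.p14, the first listed start of each symbol, 250 bases before to 50 after it). The cores searched, on both strands, were GCGCATGC for NRF1, CCGGAAG for ETS factors and AAGATGGC for YY1, and no match of one overlapped a match of another. The NRF1 core was found in 13 of 70 promoters (18.6%), against 5.49% of promoters of tested genes and 3.27% of all 27305 in the table. The ETS core was found in 20 (28.6%, against 19.4% and 10.7%), and the YY1 core in 11 (15.7%, against 5.30% and 3.03%). Split by call, 3 of 13 members that rose, 3 of 27 that fell and 7 of 26 that did not pass had the NRF1 core. For the ETS core these were 3 of 13, 7 of 27 and 10 of 26, and for the YY1 core 2 of 13, 4 of 27 and 5 of 26. All 3 cores thus occurred in members of each kind. Of the 2 that rose with the YY1 core, NDUFA7 had 5.1% of its reads placed uniquely and lost its call on unique reads. A match is a description of the letters and not a bound site. For each core the windows below are from the member with the largest rise and the member with the largest fall among those that have it, on the strand of the gene with the match in capitals and 9 bases on each side. They lie at chr12:53676107-53676132 (ATP5MC2, minus strand), chr10:7788146-7788173 (ATP5F1C, plus strand, a pair of overlapping matches), chr19:14572075-14572099 (NDUFB7, minus), chr11:47578982-47579006 (NDUFS3, plus), chr19:8321345-8321370 (NDUFA7, minus) and chr1:111449453-111449478 (ATP5PB, plus).
ATP5MC2 (NRF1 core, rose): ccgggtcacGCATGCGCtgagccttc
ATP5F1C (NRF1 core, fell): ggagcttcgGCGCATGCGCgctgaggcc
NDUFB7 (ETS core, rose): ctaaatgacCCGGAAGctgtgtctg
NDUFS3 (ETS core, fell): cacgtccgcCCGGAAGaagatctgc
NDUFA7 (YY1 core, rose): cgcggacggAAGATGGCgtccgccac
ATP5PB (YY1 core, fell): ttgtgagcgGCCATCTTggtcctgcc

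Of the regulators of these genes 16 were tested, and 4 were higher (25.0%) and 7 lower (43.8%), with a median of -0.01. The 68.8% that passed is about the 69.5% of all genes. NRF1 had 24.6, 23.6 and 24.3 CPM in control and 26.6, 24.6 and 23.7 CPM with PERK siRNA (0.04, adjusted p = 0.51), with groups that overlapped. GABPA, the DNA-binding part of GABP, fell from 62.5 ± 2.4 to 51.7 ± 2.0 CPM (-0.27), and ESRRA, the estrogen-related receptor α, from 39.1 ± 2.2 to 26.0 ± 0.87 CPM (-0.59). PPARD fell by 0.35, and SP1, which binds many promoters of this kind, rose by 0.53 (adjusted p = 3.8e-15). PPARGC1A, the coactivator PGC-1α, was scarce at 0.72 ± 0.39 and 0.87 ± 0.09 CPM and did not pass (adjusted p = 0.50).

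Genes that transcribe, copy or process mitochondrial DNA and its RNA showed 9 rises and 14 falls among 35 tested, with a median of -0.04. In all 65.7% passed the threshold, near the 69.5% of all genes, so the counts set the list little apart. TFAM, which packages mitochondrial DNA and starts its transcription, rose from 83.1 ± 2.2 to 93.3 ± 3.4 CPM (0.17 ± 0.04 SE, adjusted p = 0.00011). GRSF1, an RNA-binding protein of the mitochondrial RNA granules, rose from 110 ± 2.7 to 145 ± 1.7 CPM (0.40). POLRMT, the mitochondrial RNA polymerase, fell by 0.16 and LRPPRC, which stabilises mitochondrial mRNAs, by 0.09. Falls came in PNPT1, a subunit of the mitochondrial RNA degradation machinery (47.9, 47.5 and 43.7 CPM to 28.6, 26.3 and 30.8 CPM, -0.70 ± 0.05 SE, adjusted p = 4.5e-12), FASTKD5 (-0.67) and FASTKD2 (-0.41), which act in processing mitochondrial transcripts. Their groups did not overlap, as in 15 of the 35 and in 36.0% of all genes in this direction.

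Assembly factors, which build the complexes without staying in them, were compared with the 34.4% of all genes higher and the 35.0% lower. For complex I 3 of 19 were higher (15.8%) and 11 lower (57.9%, median -0.16), among them NDUFAB1, the acyl carrier protein that is also a subunit (-0.53), COA1 (-0.50), TMEM126B (-0.28) and ECSIT (-0.27). For complex IV 6 of 28 were higher (21.4%) and 12 lower (42.9%, median -0.09), which is nearer to the share over all genes: SCO1 (0.74), a copper chaperone, and COX15 (0.56, 68.0% of reads unique), of heme a synthesis, rose, and COX11 (-0.33), of copper delivery, and HIGD1A (-0.32, 78.1% unique) fell. For complexes II and III 3 of 13 were higher and 4 lower (median -0.16). They included the largest change of any factor, that of TTC19, which clears fragments of the Rieske protein from complex III. TTC19 rose from 14.5, 13.1 and 14.2 CPM to 38.6, 37.3 and 38.7 CPM (1.45 ± 0.06 SE, adjusted p = 5.0e-19), and LYRM7, which hands the Rieske protein to complex III, rose by 0.51, while UQCRFS1, the Rieske gene, was among those that fell. SDHAF3 (-1.03) and UQCC1 (-0.75) fell. For complex V 1 of 6 was higher and 2 lower. There FMC1 fell by 0.54 from 4.16 ± 0.56 CPM. ATPAF1 (-0.24) lost its call without PERK siRNA replicate 2 or 3 (adjusted p = 0.051 and 0.052), and TMEM242 (0.19) without control replicate 1 (0.071).

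Around the chain, enzymes of the tricarboxylic acid cycle and pyruvate dehydrogenase, which supply its electrons, had 13 of 18 members lower (72.2%, against 35.0% of all genes) and 3 higher (16.7%, against 34.4%), with a median of -0.17. DLD fell from 191, 198 and 199 CPM to 131, 133 and 131 CPM (-0.57 ± 0.03 SE, adjusted p = 4.4e-17), IDH3A by 0.72, with 53.8% of its reads unique, and DLAT by 0.60. SUCLG2, the GTP-forming subunit of succinyl-CoA ligase, rose from 29.8, 30.7 and 28.9 CPM to 70.7, 67.1 and 72.2 CPM (1.23 ± 0.04 SE, adjusted p = 3.5e-20). Among electron carriers and genes of ubiquinone synthesis 2 of 20 were higher and 7 lower (median -0.02). CYCS, the cytochrome c between complexes III and IV, had 90.1 ± 5.6 and 89.5 ± 1.1 CPM (-0.01, adjusted p = 0.82), COQ3 (-0.95), COQ8B (-0.82) and COQ10B (-0.75) fell, and ETFB (0.74, 61.5% of reads unique) rose. Genes of cristae shape and of carriers and pores had 4 of 18 higher and 7 lower (median -0.02): APOOL (0.84) and OPA1 (0.54), which fuses inner membranes, rose, and the pore genes VDAC2 (-0.29) and VDAC3 (-0.17) fell.

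**Figure D5:**
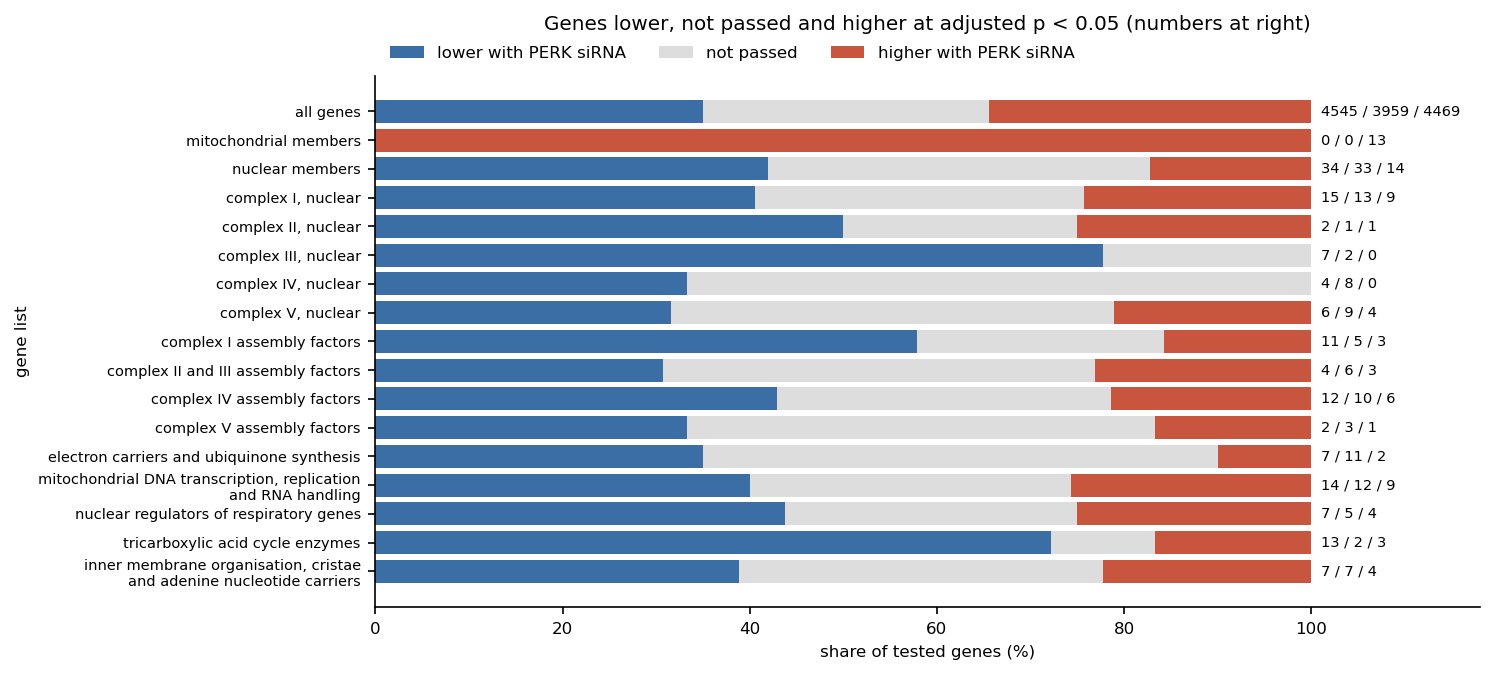
Share of tested genes that were lower (blue), did not pass (grey) or were higher (red) in PERK siRNA samples (adjusted p under 0.05), for all genes, the members and the 9 lists of related genes, with the 3 counts at the right of each bar. The mitochondrial members are all red (13), nuclear complex III has 7 of 9 in blue and the tricarboxylic acid cycle list 13 of 18.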

How the data were processed

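Total RNA of 6 LX-2 samples had been sequenced from directional libraries, per the labels' protocols. Per the file headers, the authors deposited total and unique exon reads per gene as counts, the exon length, and TPM. Per the submitters' processing notes the genome build was hg38. The sources used here do not give the aligner, the counter or the use of strand. Total exon reads were tested with edgeR 4.0.16 (R 4.3.3): TMM factors, the default expression filter, a robust quasi-likelihood fit, no covariate, and Benjamini-Hochberg adjustment over 12973 genes at 0.05. Levels of different genes were compared as TPM only, and CPM are scaled by TMM factors.

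Members and lists were chosen with earlier results of these data known. Named were EIF2AK3, all 13 mitochondrial members, core subunits, isoform sets, the 3 largest rises and falls in each complex, members past 0.5 on the log2 scale, and the 4 smallest adjusted p-values of each list with a few regulators. Other members named are there to account for them. A gene that the rule takes is counted in its groups but not reported by name here. Places came from GENCODE release 29 on GRCh38, the assembly of hg38, for all 103 members. The fit was tested on simulated data. Alternatives were other scaling, filters, DESeq2 1.42.0, limma-voom (limma 3.58.1), non-robust dispersion, a 1.2-fold null, the replicate block, unique reads, other member lists and leaving out each sample. Replicates differed by more than sampling noise (chi-square per degree of freedom 1.64 to 2.30 within and 61.6 to 67.4 between groups). Python 3.11.15 was used for the promoter search.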

Additional observations from a re-analysis of the deposited data

How the results depend on the processing

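Of the 61 members past the threshold, 55 to 61 kept their call under each of the 16 alternatives other than the 1.2-fold null, and none of those tested changed sign. On unique reads 60 of the 61 could be tested, without NDUFC2-KCTD14, and 59 kept their call. Of all 61 called members, 11 lost the call at least once under these 16 alternatives. Scaling moved the median of all genes by at most 0.016. Low reads limit NDUFA4L2 and the tissue isoforms, and shared reads limit NDUFA7, SDHA, NDUFB8 and the read-through genes.

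Against a 1.2-fold null, 2345 of the 12973 tested genes were higher and 2344 lower, 4689 in all. Of the 81 tested nuclear members 3 were then higher (NDUFB3, NDUFB7, ATP5MC2) and 9 lower, both smaller shares than those of all genes. Of the 13 mitochondrial members 2 were higher (MT-ND1, MT-CYB), about the share of all genes. Calls among tested nuclear members were 7 of 37 in complex I, 0 of 4 in complex II, 1 of 9 in III, 0 of 12 in IV and 4 of 19 in V. In the lists other than complex II and III assembly they were 2 of 19 (complex I assembly), 10 of 28 (complex IV assembly), 1 of 6 (complex V assembly), 5 of 20 (carriers and ubiquinone), 7 of 35 (mitochondrial DNA and RNA), 3 of 16 (regulators), 7 of 18 (tricarboxylic acid cycle) and 2 of 18 (inner membrane). The complex II and III assembly list had 7 of 13 called in the main fit. It lost a smaller share of its calls than these lists, and its count is not given here. The stricter null is by construction harder to pass.

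Without a filter on low counts the complex III median was -0.15, since UQCRHL entered. The complex IV median ranged from -0.03 to 0.014 when each sample was left out. Of genes not past the threshold, some changed sign: ATP5IF1 (-0.0088 with library size only, -0.0062 without a filter, -0.028 to 0.022 with a sample left out), COX7A2L (-0.0047, -0.0022, and -0.019 to 0.024), COX7B (0.0095 with upper-quartile factors, -0.018 to 0.010), CYC1 (0.013, -0.030 to 0.026), CYCS (0.0051, -0.046 to 0.039), NDUFA4 (0.0073, -0.033 to 0.016), NDUFS7 (-0.053 to 0.014), NRF1 (-0.0022 to 0.081) and PPARGC1A (-0.092 to 0.68). The cause was not tested.

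With a sample left out, nuclear members higher ranged from 12 to 15 and lower from 31 to 37, and mitochondrial members higher from 11 to 13. No pairing by replicate number was seen (correlation of same-numbered deviations 0.011, -0.032 and -0.029), and the labels do not tell whether samples were paired. With the replicate numbers as a block, 14 nuclear members were higher, 36 lower and 13 mitochondrial members higher, and all 61 called members kept their call.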

Other observations

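A few genes of the related lists, chosen after their values were seen, moved by more than most members. COX17, the copper chaperone that feeds the complex IV assembly factors, fell (-0.74), as did UQCC6 (-0.86), of complex III assembly, and FASTKD1 (-0.73), of mitochondrial RNA handling. PDHX, which binds DLD into the pyruvate dehydrogenase complex, fell by 0.85, beside the falls of DLD and DLAT. IDH2, the NADP-dependent isocitrate dehydrogenase of mitochondria, rose (0.48), while IDH3A, of the NAD-dependent enzyme, was among those that fell. SUCLG2 rose (1.23) and SUCLA2, the alternative ATP-forming subunit that pairs with SUCLG1, fell (-0.39).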
